A study of Mus musculus with 10 samples.

Results

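The genes described here are 10 transcription factors and hormone receptors that mark the cell lineages of the mammary gland: Esr1, Pgr, Foxa1, Gata3, Elf5, Ehf, Spdef, Tfap2a, Sox9 and Sox10. They were taken by name from a table of 55486 genes, where each had 1 row. The table held 10 RNA sequencing libraries from 5 gels of collagen and basement membrane extract, each cultured for 7 days. Normal fibroblasts (NFs) were sorted as EpCAM-, CD49f-, CD45- and CD31- cells from mammary tissue of mTmG mice (8 weeks of age) on an FVB/n background, a reporter strain in which cells are red until Cre recombinase turns them green. NFs with the surface protein CD26 (CD26+) had been given a Cre-carrying adenovirus and were green, and NFs without it (CD26-) were red, so exposure to the virus and the subset cannot be told apart. The NFs of several mice were pooled in a sort, grown for a week on plastic and mixed in equal parts. Tumor cells were 2 lines, 13-MCB-17 and 10-SJK-221, from primary tumors of mice in which the Wap promoter drives Cre in mammary epithelium and removes Cdh1, the gene of E-cadherin, as a model of invasive lobular carcinoma. Gel 1 held NFs alone, gel 2 held 13-MCB-17 alone, gel 3 held 10-SJK-221 alone, gel 4 held NFs with 13-MCB-17 and gel 5 held NFs with 10-SJK-221. Cells were sorted by color after culture, which gave 1 library each of CD26- NFs, CD26+ NFs and, where present, tumor cells per gel. Hence 6 libraries were of NFs and 4 of tumor cells, and the spread between libraries is between gels or lines, with no second library of any sorted population.

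The mammary epithelium has an inner luminal and an outer basal layer. Hormone-sensing luminal cells carry the estrogen receptor Esr1 and the progesterone receptor Pgr. In these cells Foxa1 opens chromatin for the estrogen receptor, and Gata3 maintains luminal identity. Elf5 drives the alveolar, milk-producing lineage, and its relatives Ehf and Spdef belong to the same family of ETS factors found in many epithelia. Tfap2a is an AP-2 factor of ectoderm and neural crest, Sox9 is found in luminal progenitors and in cartilage, and Sox10 marks neural crest derivatives and part of the basal and progenitor epithelium. Stromal fibroblasts of the mammary gland can also carry hormone receptors.

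The label of each library was checked against marker genes first. The 11 epithelial markers (such as Epcam, Cdh1 and Krt7) summed to 2879 to 4113 CPM (counts of the gene per 1e6 counts of the library) in tumor cells, and to 2.92 and 5.12 CPM in the CD26- and CD26+ NFs of gel 1. The 10 fibroblast markers (such as Col1a1 and Dcn) summed to 24580 to 77420 CPM in NFs and to 176 to 651 CPM in tumor cells. Dpp4, the gene of CD26, had 4, 12 and 4 counts in the CD26+ NFs and 0, 0 and 1 in the CD26- NFs of gels 1, 4 and 5, in the order of the labels but too few to say more. Cdh1 itself stood at 139.9 to 268.6 CPM in tumor cells, and counts over the whole gene do not show whether its floxed exons were removed. In NFs from gels with tumor cells, the 11 epithelial markers summed to 107 to 216 CPM, with none at 0. Relative to the tumor cells of the same gel, the median epithelial marker stood at 2.05% (CD26-) and 3.09% (CD26+) in gel 4 and at 2.21% and 5.63% in gel 5. Libraries held 14142334 to 18408940 counts, and a count of 0 allows up to 3 counts, or 0.163 to 0.212 CPM depending on the library. In such bulk libraries, fewer cells that express a gene and less of its RNA per cell cannot be told apart.

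Stretches upstream of a transcription start are shown for the receptor genes, which were read in NFs, and for Foxa1, which was read in tumor cells, so that both sides of the main contrast can be seen. In the table of RefSeq promoters used here (GRCm38.p6) 7 of the 10 genes were matched, and Ehf, Sox9 and Sox10 were not. Each run is 5′ to 3′ on the strand of its gene, lies within the 250 bases before the start and leaves out bases that GENCODE M21 places in an exon. Capitals mark matches on either strand to the 8 short motifs searched: GCCNNNGGC for AP-2 factors, AGATAA for the GATA family, TGTTTAC for forkhead factors, CCGGAA for ETS factors, AACAAT for SOX factors, AGGTCA for the estrogen receptor half-site, TATAAA for the box of that name and GGGCGG for the GC box.
Pgr, chr9:8899583-8899832, plus strand: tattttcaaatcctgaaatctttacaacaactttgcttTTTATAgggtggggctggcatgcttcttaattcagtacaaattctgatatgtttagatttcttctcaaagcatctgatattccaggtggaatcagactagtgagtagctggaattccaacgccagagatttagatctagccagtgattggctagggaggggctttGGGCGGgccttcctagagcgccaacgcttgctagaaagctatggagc
Esr1, chr10:4709908-4710154, plus strand, before a start inside the gene: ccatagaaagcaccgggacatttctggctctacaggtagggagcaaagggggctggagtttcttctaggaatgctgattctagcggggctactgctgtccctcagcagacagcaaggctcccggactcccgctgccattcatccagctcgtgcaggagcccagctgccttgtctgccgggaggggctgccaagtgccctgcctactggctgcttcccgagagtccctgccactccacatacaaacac
Foxa1, chr12:57546122-57546361, minus strand, inside the span of the gene: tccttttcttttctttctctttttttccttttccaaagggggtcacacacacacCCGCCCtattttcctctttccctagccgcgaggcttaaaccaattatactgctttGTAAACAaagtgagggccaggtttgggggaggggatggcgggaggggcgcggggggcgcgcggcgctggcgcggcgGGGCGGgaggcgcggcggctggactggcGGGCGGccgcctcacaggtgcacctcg

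The Foxa1 stretch held 1 forkhead match, a motif in 3.16% of the 32817 promoter windows of this length, and 3 GC boxes, a motif in 32.7% of them. The Pgr stretch held 1 TATA box match, which 12.4% of windows hold, at position -212 from the start, and 1 GC box at position -47. None of the 8 motifs was found in the Esr1 stretch. Another Esr1 window, which lies in an annotated exon and is not shown, held 1 AP-2 match at position -170. AP-2, GATA, ETS, SOX and estrogen receptor half-site letters, present in 13.7%, 9.99%, 12.0%, 9.43% and 14.03% of windows, were in none of the 3 stretches. The whole Foxa1 window was 62% G or C with 21 CpG, against 43.6% and 4 CpG for Pgr and medians of 52.4% and 6 CpG over all windows. Matches are descriptions of letters and no evidence of binding.

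The hormone receptors were read in NFs and were at or near 0 in tumor cells. Esr1 (GRCm38 chromosome 10, 4611593 to 5005614) read 3.73, 8.12 and 8.52 CPM in gels 1, 4 and 5 in CD26- NFs, and 5.33, 7.52 and 7.43 CPM in these gels in CD26+ NFs. In tumor cells it had 0 counts in gels 2, 3 and 4 and 2 counts (0.114 CPM) in gel 5. No NF library overlapped a tumor library, and the share of all genes with such a gap is not given here. Pgr (chromosome 9, 8899833 to 8968611), itself a classic target of the estrogen receptor in epithelium, read 5.03, 10.4 and 10.9 CPM for CD26- NFs in the same order of gels, 9.41, 18.4 and 9.76 CPM for CD26+ NFs, and had 0 counts in all 4 tumor libraries. Esr2, the other estrogen receptor, had at most 0.0576 CPM in any library.

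The luminal factor Foxa1 had the opposite pattern. Foxa1 (chromosome 12, 57540628 to 57546916) reached 19.9 and 26.2 CPM in tumor cells alone (gels 2 and 3) and 6.17 and 12.7 CPM in tumor cells of gels 4 and 5. It had 0 counts in both NF libraries of gel 1, 3 and 12 counts in CD26- NFs of gels 4 and 5, and 1 and 6 counts in CD26+ NFs of those gels. Thus NFs had Foxa1 counts only where tumor cells were in the gel. Gata3 (chromosome 2, 9857078 to 9890034) was read in every library. CD26- NFs of gels 1, 4 and 5 had 0.621, 1.64 and 1.84 CPM of it, CD26+ NFs had 2.25, 5.40 and 2.97 CPM, and the level was 5.05, 4.77, 6.50 and 4.45 CPM in tumor cells of gels 2 to 5. The CD26+ NFs of gel 4 lay within the range of the tumor libraries. Of the bases in Gata3 exons, 5.83% also belong to exons of Gm13256 or 9230102O04Rik, so some of its counts could be theirs.

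Of the ETS factors, Elf5 was not detected at this depth, Ehf was read mainly in tumor cells, and Spdef was low and higher in co-cultured NFs than in tumor cells. Elf5 (chromosome 2, 103411688 to 103450989) had 0 counts in all 10 libraries. Ehf (chromosome 2, 103263433 to 103303278), whose nearest coding gene is Elf5 at 108410 bases, stood at 12.0, 4.90, 7.86 and 2.28 CPM in tumor cells of gels 2 to 5. In NFs it had 0, 1 and 0 counts (CD26-) and 4, 5 and 0 counts (CD26+) in gels 1, 4 and 5. The neighbouring loci thus differed, with up to 221 counts of Ehf beside none of Elf5. Spdef (chromosome 17, 27714352 to 27728955) had 8, 7, 5 and 5 counts in tumor cells of gels 2 to 5. It had 1 and 2 counts in CD26- and CD26+ NFs of gel 1, but 14 and 18 counts in CD26- and 26 and 22 counts in CD26+ NFs of gels 4 and 5.

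Tfap2a and Sox9 were the members with the most counts, and Sox10 was close to absent. Tfap2a (chromosome 13, 40715302 to 40738376) stood at 102, 73.9, 61.5 and 52.4 CPM in tumor cells of gels 2 to 5. CD26+ NFs had 4.98, 11.2 and 15.6 CPM in gels 1, 4 and 5, where CD26- NFs had 0.248, 1.64 and 1.55 CPM, so that the 3 cell populations did not overlap. The share of all genes that part the populations in this way is not given here. Exons of Gm47061, Gm26688 and Gm47067 on the opposite strand cover 14.6% of its exon bases, and without a statement that strand was used their reads cannot be told apart from those of Tfap2a. Sox9 (chromosome 11, 112782224 to 112787760) was at 59.6 and 63.4 CPM in the CD26- and CD26+ NFs from gel 1. In gels 4 and 5 it was at 15.5 and 13.9 CPM for CD26- NFs and 21.8 and 24.4 CPM for CD26+ NFs, and tumor cells had 61.8, 90.9, 28.2 and 51.2 CPM in gels 2 to 5. NFs and tumor cells overlapped, and within each the libraries grown alone were the highest. Sox10 (chromosome 15, 79154908 to 79165240) had 9 and 8 counts in tumor cells of gels 4 and 5 and at most 2 counts in any other library.

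**Figure D1:**
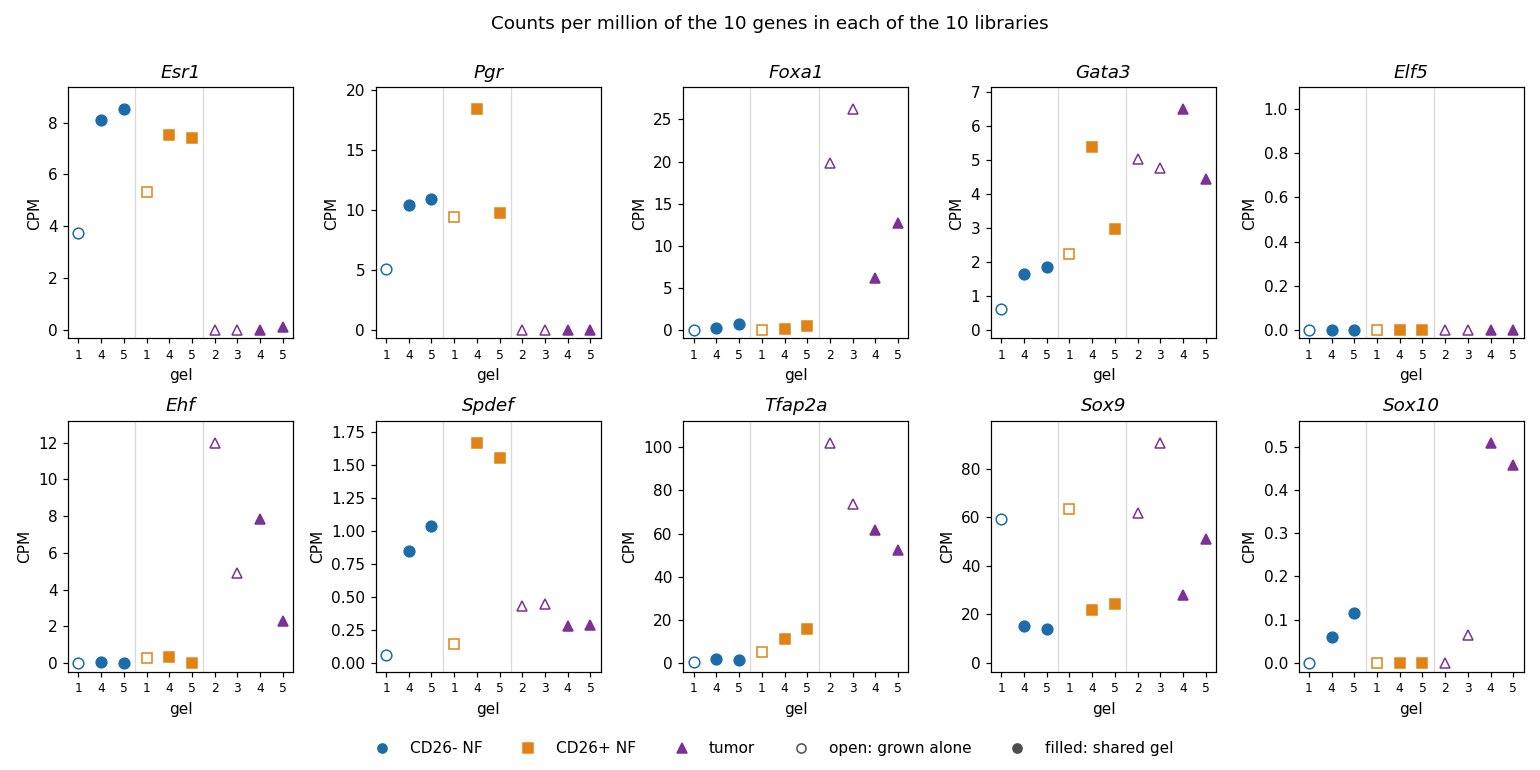
CPM (vertical axes, linear, each gene on its own scale) of the 10 genes in the 10 libraries, by gel on the horizontal axis. Circles are CD26- NFs, squares CD26+ NFs and triangles tumor cells, with open symbols for cells grown alone and filled symbols for shared gels. Esr1 and Pgr are seen in the 6 NF libraries, Foxa1 and Ehf almost only in the 4 tumor libraries, Tfap2a in tumor cells and then CD26+ NFs, and Elf5 in none.

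Levels were also divided by the length of all annotated exons of a gene joined together. Which of these exons the transcripts held is not known, so the order of genes on this measure is approximate. Per kilobase of such exons, tumor cells had the most Tfap2a (10.7 to 20.9 CPM per kilobase over 4 libraries) and Sox9 (6.81 to 22.0), whose ranges overlapped. Foxa1 followed at 1.85 to 7.88 CPM per kilobase, so that its range overlapped with that of Sox9 and, at its lower end, with that of Ehf (0.409 to 2.15), and lay above that of Gata3 (1.12 to 1.64). The range of Gata3 lay within that of Ehf. In the 6 NF libraries Sox9 led with 3.37 to 15.3 CPM per kilobase and did not overlap with any other member. The ranges of Pgr (0.589 to 2.15), Tfap2a (0.0507 to 3.17), Gata3 (0.156 to 1.36), Esr1 (0.273 to 0.624) and Spdef (0.0269 to 0.725) each overlapped with their neighbours in the order of the means. At these per-length levels each of the 6 NF libraries had more Pgr than Esr1, with means of 1.24 and 0.496 CPM per kilobase. The joined exons hold 8546 bases for Pgr and 13661 for Esr1, so the size of this gap depends on these lengths. In plain CPM the means over the NF libraries were 10.6 for Pgr and 6.77 for Esr1.

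To compare the cell classes without RNA from a shared gel, tumor cells of gels 2 and 3 were compared with NFs of gel 1. Foxa1 was at least 109-fold higher in tumor cells, computed against the floor of 3 counts per library (adjusted p = 0.000407, edgeR quasi-likelihood test with Benjamini-Hochberg adjustment over all genes tested, as for every adjusted p below). Esr1 was at least 23.7-fold (adjusted p = 0.00183) and Pgr at least 37.8-fold (adjusted p = 0.00174) higher in NFs. Ehf was 66.3-fold higher in tumor cells by the ratio of pooled counts, with an exact 95% counting interval of 25.6 to 245, and its log2 fold change was 5.77 ± 1.07 (SE, adjusted p = 0.0073). Tfap2a was higher in tumor cells by 4.97 ± 0.99 on the log2 scale (adjusted p = 0.00922). Gata3 (1.65 ± 0.64, adjusted p = 0.0812) and Sox9 (0.14 ± 0.23, adjusted p = 0.63) did not pass the threshold of 0.05.

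Of the 10 members, 7 had enough counts to be tested here and 5 were called, 3 higher and 2 lower in tumor cells, while Elf5, Spdef and Sox10 were not tested. Over all 14404 genes tested, 47.2% were called, 21.3% higher and 25.9% lower. The 2 NF libraries were the 2 subsets, with 4 and 71 counts of Tfap2a and 0 and 4 counts of Ehf in CD26- and CD26+ NFs. Without the CD26+ library of gel 1 the log2 fold change of Tfap2a was 8.19, and that of Ehf was fitted at 10.09 against 0 counts in the remaining NF library, a value that depends on the prior count. Without the CD26- library Tfap2a was at 4.05 and Ehf at 4.79, and without the 13-MCB-17 library of gel 2 Ehf was at 4.95. Gata3 passed in a model of all 10 libraries (1.83, adjusted p = 0.00189) and, with 1 NF library left and the spread taken from the 2 tumor lines alone, without the CD26+ library of gel 1 (2.72, adjusted p = 0.0356).

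Other genes of the hormone pathway were also read on the NF side. Greb1, an estrogen-induced gene, stood at 20.2 and 42.5 CPM, and Tnfsf11, which encodes the progesterone-induced ligand RANKL, at 74.0 and 48.6 CPM in CD26- and CD26+ NFs of gel 1, and both had 0 counts in all tumor libraries. Of the 12 genes listed for hormone-sensing luminal cells, 9 were tested, of which 4 were higher and 5 lower in tumor cells. The keratins Krt8 and Krt18 and the growth factor Areg, which estrogen induces in the gland, were among those higher in tumor cells (Areg 7.71 ± 0.29 on the log2 scale, adjusted p = 8.4e-05). Of 19 nuclear receptors tested, 2 were higher (Vdr, the vitamin D receptor, and Rarg) and 7 lower.

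Among related lineage factors, 6 of 18 tested were higher and 4 lower in tumor cells alone. The epithelial factors Grhl2 (66.8 and 93.0 CPM) and Elf3 (110 and 100.2 CPM in gels 2 and 3) had 0 counts in NFs of gel 1, as Foxa1 did. Tbx3, Gata6 and Gata2 were on the NF side. Tbx3 stood at 46.5 and 46.6 CPM in NFs of gel 1 and had 0 counts in tumor cells of gels 2 and 3. Of 6 tested genes listed for luminal progenitors and milk production, 3 were higher in tumor cells, among them Lcn2, and 2 were lower, Stat5a and Aldh1a3. The milk genes Csn2, Wap and Lalba had at most 1 count in any library, whereas Csn3, another casein gene, reached 0.827 and 2.11 CPM in 10-SJK-221 cells of gels 3 and 5 and was at most 0.514 CPM elsewhere.

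In gels 4 and 5, which held all cell types, 7 of the 8 members tested were called, 4 higher and 3 lower in tumor cells, against 52.5% of all 15098 genes (23.7% higher and 28.8% lower). With scaling by library size only, the share of calls that were higher was 55.8% in place of 45.2%, and the directions of the members did not change. Esr1 was 140-fold higher in NFs by the ratio of pooled counts (exact 95% counting interval 38.4 to 1155, adjusted p = 3.59e-05), and Pgr at least 72.1-fold (adjusted p = 3.09e-05). Foxa1 (4.52 ± 0.63 on the log2 scale, adjusted p = 0.000572), Ehf (5.45 ± 0.91, adjusted p = 0.00146) and Tfap2a (2.78 ± 0.75, adjusted p = 0.0152) were higher in tumor cells.

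Spdef was lower in tumor cells than in NFs of the same gels (log2 fold change -2.33 ± 0.50, adjusted p = 0.00553). Sox9 was higher in tumor cells by 0.87 ± 0.27 (adjusted p = 0.0252), but the call was lost without the CD26- NFs of gel 4 (adjusted p = 0.0611) or gel 5 (0.053), the CD26+ NFs of gel 4 (0.0515) or the tumor cells of gel 5, where the log2 fold change was 0.37 (adjusted p = 0.328). Gata3 was at 0.71 ± 0.45 (adjusted p = 0.216) and passed in a model of all 10 libraries (0.80, adjusted p = 0.0368) and without the CD26+ NFs of gel 4 (1.08, adjusted p = 0.0443). Elf5 and Sox10 were not tested. The value of Ehf was 7.23 without the CD26+ NFs of gel 4, 6.06 without the tumor cells of gel 5 and 4.25 without those of gel 4. Foxa1 was at 3.89 without the tumor cells of gel 5 and at 5.21 without the CD26- NFs of that gel, and Tfap2a was at 3.40 without the CD26+ NFs of gel 5. The counting interval of Esr1 rests on the 2 counts in tumor cells of gel 5, while those of gel 4 had 0. Its fitted log2 fold change of -7.14 was -6.27 without the tumor cells of gel 4 and -10.06 without those of gel 5, the latter against 0 counts and so dependent on the prior count.

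Expressed as a percentage of the tumor cells of the same gel, the members in NFs fell above, among or below the epithelial markers. Foxa1 in CD26- NFs was at 2.95% (gel 4) and 5.43% (gel 5) and in CD26+ NFs at 1.04% (from 1 count) and 3.34%, beside marker ranges of 1.66% to 9.79% and 0.827% to 9.19% (CD26-, gels 4 and 5) and 2.08% to 12.8% and 2.57% to 17.7% (CD26+). Tfap2a was at 2.66% and 2.96% in CD26- NFs, near the marker medians of 2.05% and 2.21%, but at 18.3% and 29.7% in CD26+ NFs, above all 11 markers. Gata3 was at 25.2% and 41.4% in CD26- and at 83.0% and 66.8% in CD26+ NFs, and Sox9 at 54.9% and 27.2% in CD26- and at 77.5% and 47.6% in CD26+ NFs, all above the markers. Spdef, at 300% and 363% in CD26- and 591% and 546% in CD26+ NFs, exceeded the tumor cells in all 4 libraries. The part of tumor-cell RNA in the NF counts of Foxa1, Ehf and Tfap2a was not tested.

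**Figure D2:**
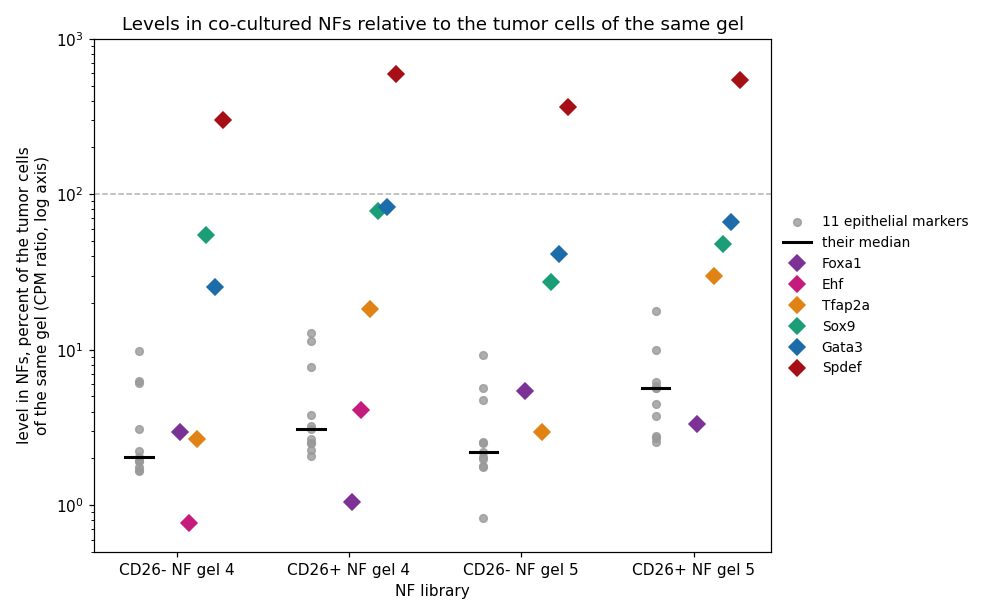
Level in each of the 4 co-cultured NF libraries as a percentage of the tumor cells of the same gel (ratio of CPM, log axis), for 11 epithelial markers (grey, black bar: median) and 6 members (diamonds). The dashed line is at 100%, and Ehf had 0 counts in NFs of gel 5 and is not drawn there. Foxa1 lies within the range of the markers in 3 libraries and below it, from 1 count, in CD26+ NFs of gel 4, Tfap2a lies within it in CD26- and above it in CD26+ NFs, and Spdef lies above 100%.

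All 6 members that could be tested in NFs were called between gels with and without tumor cells, as were 48.8% of all 15013 genes (25.9% higher and 22.9% lower). The calls of Esr1, Pgr and Gata3 were lost when single libraries were left out. Esr1 averaged 4.53 ± 1.14 CPM in the NFs of gel 1 (SD, n = 2, the 2 subsets) and 7.89 ± 0.52 CPM in gels 4 and 5 (SD, n = 4), and rose by 0.86 ± 0.25 on the log2 scale (adjusted p = 0.0174). Pgr rose by 0.86 ± 0.27 (adjusted p = 0.026), from 7.22 ± 3.09 to 12.3 ± 4.05 CPM (SD, same libraries). For both genes every co-cultured library lay above the gel 1 library of the same subset, but for Pgr the ratio was 1.04 in CD26+ NFs of gel 5, with a counting interval of 0.812 to 1.33, against 1.95 in those of gel 4 and 2.06 and 2.16 in CD26- NFs.

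Spdef and Tfap2a rose and Sox9 fell. Spdef in co-cultured NFs was 13.7- and 16.7-fold above gel 1 in CD26- NFs (exact 95% counting intervals 2.08 to 578 and 2.63 to 695) and 11.9- and 11.1-fold in CD26+ NFs (2.98 to 103 and 2.72 to 97.2), with a fitted log2 fold change of 3.62 ± 0.66 (adjusted p = 0.00166). The wide intervals follow from 1 and 2 counts in gel 1. Tfap2a rose by 1.75 ± 0.35 (adjusted p = 0.00255), by 6.59- and 6.26-fold in CD26- and 2.26- and 3.12-fold in CD26+ NFs of gels 4 and 5. Gata3 rose by 1.17 ± 0.41 (adjusted p = 0.0376), by 2.63- and 2.97-fold in CD26- NFs of gels 4 and 5 and 2.40-fold in CD26+ NFs of gel 4, but its ratio in CD26+ NFs of gel 5 was 1.32 with a counting interval of 0.815 to 2.16. Sox9 fell to 0.259 and 0.234 of the gel 1 level in CD26- NFs and to 0.345 and 0.385 in CD26+ NFs, a log2 fold change of -1.70 ± 0.15 (adjusted p = 2.06e-05).

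Thus 5 members were called higher and 1 lower, and Foxa1, Elf5, Ehf and Sox10 were not tested. The 11 epithelial markers moved with co-culture as well, at 107 to 216 CPM in the 4 NF libraries with tumor cells against 2.92 and 5.12 CPM in gel 1, and their part in the rise of Tfap2a and Gata3 was not tested. Of the 7 endothelial and immune markers 4 were tested, and Pecam1 (3.35, adjusted p = 0.00011) and Cdh5 (3.54, adjusted p = 0.00192) were higher in co-cultured NFs, where the list summed to 10.2 to 26.9 CPM against 1.80 and 8.07 CPM in gel 1. Esr1 and Pgr were at or near 0 in tumor cells and Spdef lower there than in these NFs, and what lay behind the rise of these genes was not tested. NFs alone came from 1 gel, so co-culture and that gel cannot be told apart. Leaving out a library of gel 1 leaves 1 library of NFs alone, with the spread taken from the co-cultured NFs only. Without the CD26- library of gel 1 the log2 fold changes were 0.52 for Esr1 (adjusted p = 0.214), 0.61 for Pgr (0.18) and 0.93 for Gata3 (0.166), none of which passed, nor did these genes without the CD26- NFs of gel 5 (0.0565, 0.061 and 0.087). Pgr and Gata3 were also lost without the CD26- (0.0558 and 0.0716) or the CD26+ NFs of gel 4 (0.0843 and 0.111), and Gata3 without the CD26+ library of gel 1 (1.53, adjusted p = 0.0735), where Tfap2a was at 2.70.

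The genes around the receptors in NFs moved both ways. Of 20 nuclear receptors tested, 4 were higher and 12 lower in co-culture, with a median log2 fold change of -0.82 beside 0.02 over all genes tested. Vdr, the vitamin D receptor, fell by 1.99 on the log2 scale. Pparg, the adipogenic receptor, fell by 3.84, while Rarb, a retinoic acid receptor, rose by 1.88. Of 11 tested genes of the hormone-sensing luminal list, 5 were higher and 5 lower. Greb1 fell by 1.75 (SE 0.26, adjusted p = 0.000504) and Prlr, the prolactin receptor, by 6.07, to at most 0.354 CPM. Krt8, Krt18 and Areg rose, and these were also high in tumor cells. Of 12 estrogen receptor coregulators, 4 were lower (among them Ncoa1, Lmo4 and Tle3) and none higher in this fit.

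Between the NF subsets, 1 of 6 members tested was called, and 7.53% of all 15013 genes were (3.93% higher and 3.6% lower in CD26+ NFs). Tfap2a was higher in CD26+ than CD26- NFs by 3.13 ± 0.31 on the log2 scale (adjusted p = 0.00128). Its ratio was 20.1 in gel 1 (exact 95% counting interval 7.5 to 75.7), 6.87 in gel 4 (4.56 to 10.7) and 10.0 in gel 5 (6.7 to 15.5), so it was higher in 3 of 3 gels, also in gel 1, which held no tumor cells. The 11 epithelial markers in gels 1, 4 and 5 summed to 5.12, 157 and 216 CPM for CD26+ against 2.92, 107 and 111 CPM for CD26- NFs, and of 10 tested Cldn3 was higher in CD26+ NFs (2.07, adjusted p = 0.0261). Of 4 tested endothelial and immune markers Kdr was higher in CD26+ NFs (2.11, adjusted p = 0.0191), and the part of either list's cells in the values of the members was not tested. With scaling by library size only, the share of all calls that were higher was 81.0% in place of 52.2%, and Tfap2a stood at 3.29.

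Gata3 was 3.62-fold (gel 1), 3.30-fold (gel 4) and 1.61-fold (gel 5) higher in CD26+ NFs. In gel 5 the counting interval of 0.994 to 2.64 included 1. Gata3 missed the threshold, with a fitted 1.26 ± 0.36 (adjusted p = 0.066). It passed with DESeq2 (adjusted p = 0.0422), in a model of all 10 libraries (0.0385) and with library-size scaling (0.0389). Esr1 did not pass (-0.11 ± 0.22, adjusted p = 0.808), and its direction turned with library-size scaling (0.05). The values for Pgr (0.40 ± 0.25, adjusted p = 0.349), Spdef (0.64 ± 0.47, adjusted p = 0.445) and Sox9 (0.30 ± 0.15, adjusted p = 0.252) did not pass either. For Pgr the gels differed, with ratios of 1.87 and 1.77 in gels 1 and 4 but 0.897 in gel 5 (counting interval 0.715 to 1.12).

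**Figure D3:**
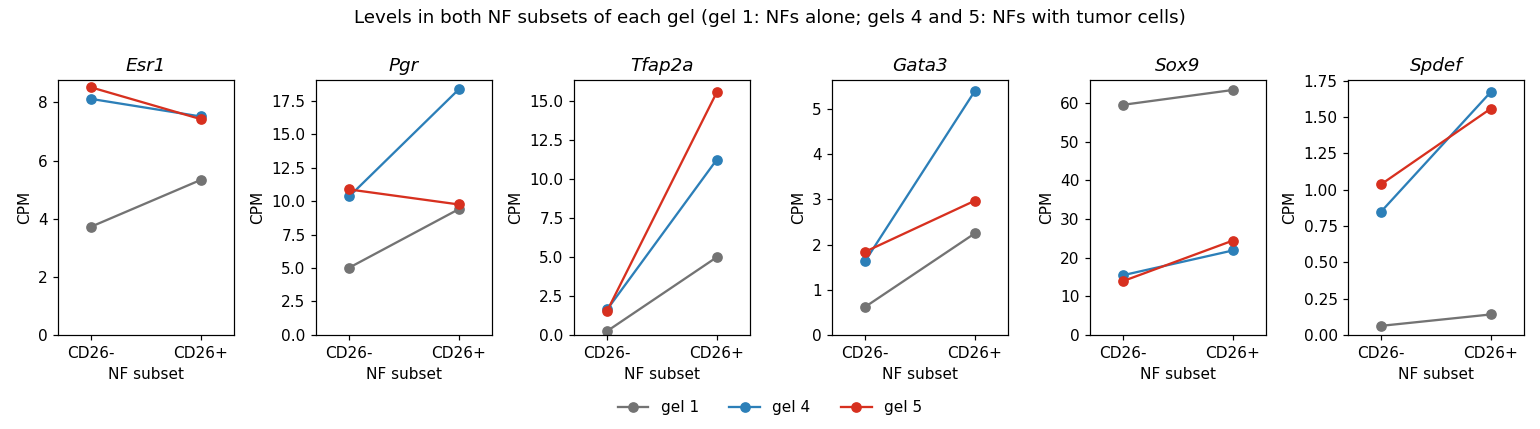
CPM (vertical axes, linear from 0) of 6 members in CD26- and CD26+ NFs, with a line joining both libraries of a gel: gel 1 (grey, NFs alone), gel 4 (blue) and gel 5 (red, both with tumor cells). Tfap2a and Gata3 are higher in CD26+ NFs in all 3 gels, with a counting interval of 0.994 to 2.64 for the Gata3 ratio in gel 5. For Esr1 and Spdef both subsets lie lower and for Sox9 higher in gel 1 than in gels 4 and 5.

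Tfap2c, the AP-2 relative of Tfap2a, was also higher in CD26+ NFs (3.77 ± 0.50, adjusted p = 0.00499), where gels 4 and 5 gave 4.30 and 4.88 CPM for CD26+ against 0.242 and 0.345 CPM for CD26- NFs. In gel 1 it was at 0.14 CPM in CD26+ and had 0 counts in CD26- NFs, too few to compare. In tumor cells Tfap2c had at most 0.0566 CPM, so the 2 AP-2 genes differed in where they were read. Tfap2b had 0 counts in every library. Of 18 related factors tested, 2 were higher (Tfap2c and Sox11) and 2 lower (Runx1 and Elf1). Of 7 luminal progenitor and alveolar genes tested, Kit (3.12 ± 0.65, adjusted p = 0.0246) and Lcn2 (2.99 ± 0.18, adjusted p = 8.62e-05) were higher and Aldh1a3 lower. Kit had 0 counts in tumor cells and reached 7.90 and 7.28 CPM in gels 4 and 5 among CD26+ NFs, against 0.424 and 0.403 CPM among CD26- NFs. In gel 1 both subsets were low, at 0.491 CPM (CD26+) and 0.435 CPM (CD26-).

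Of the 5 members tested between the tumor lines, Ehf had the largest log2 fold change. Ehf was lower in 10-SJK-221 than in 13-MCB-17 by 1.59 ± 0.23 on the log2 scale (adjusted p = 0.00312), with ratios of 0.408 between cells alone (counting interval 0.311 to 0.531) and 0.290 between co-cultured cells (0.199 to 0.415). Tfap2a was lower in 10-SJK-221 by 0.43 ± 0.11 (adjusted p = 0.0332) and Sox9 higher by 0.63 ± 0.12 (adjusted p = 0.00913). Foxa1 (0.61 ± 0.19, adjusted p = 0.0724) and Gata3 (-0.39 ± 0.24, adjusted p = 0.326) did not pass.

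In all, 3 of 5 tested members were called, 1 higher and 2 lower, against 14.5% of all 13197 genes (5.93% higher and 8.54% lower), and Esr1, Pgr, Elf5, Spdef and Sox10 were not tested. Each line is 1 culture in 2 gels, so these values compare 2 lines. The fit of 4 libraries has 1 residual degree of freedom, and in a model of all 10 libraries none of the 3 calls held (adjusted p 0.0804 for Ehf, 0.36 for Tfap2a and 0.0575 for Sox9), with 2 members at an unadjusted p under 0.05. In that model without any one of the 4 tumor libraries the adjusted p was 0.228 or more for the 3 genes. Over the 10 alternative fits, Ehf and Sox9 passed in 4 each and Tfap2a in 3. With library-size scaling the share of calls higher in 10-SJK-221 was 56.2% in place of 41.0%, and Foxa1 passed (0.69, adjusted p = 0.0254), as it did without a filter on low counts (0.61, adjusted p = 0.00537). Among related factors Sox11 was the clearest difference by its p-value, at 57.5 and 129 CPM in 13-MCB-17 (gels 2 and 4) against 3.88 and 7.53 CPM in 10-SJK-221 (gels 3 and 5).

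In tumor cells, 4 of the 5 members tested were lower in gels with NFs than in gels without, while over all genes 22.3% were called, 10.8% higher and 11.5% lower. Foxa1 in co-culture was at 0.310 of the level alone in 13-MCB-17 (counting interval 0.248 to 0.385) and at 0.485 in 10-SJK-221 (0.41 to 0.573), a log2 fold change of -1.37 ± 0.20 (adjusted p = 0.002). Sox9 was at 0.456 and 0.564 (-1.001 ± 0.116, adjusted p = 0.000794), Tfap2a at 0.602 and 0.710 (-0.64 ± 0.11, adjusted p = 0.00414) and Ehf at 0.655 and 0.466 (-0.84 ± 0.23, adjusted p = 0.0323) of the level alone. Both lines thus shared the direction for each of the 4 genes. Gata3 did not pass (0.12 ± 0.24, adjusted p = 0.782), with ratios of 1.29 and 0.932. Sox10, not tested, had 0 and 1 counts alone against 9 and 8 counts in co-culture.

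No member was called higher. Of 7 fibroblast markers tested, 6 were higher in co-cultured tumor cells (median log2 fold change 3.73, with Col3a1 at 6.76 and Col1a1 at 4.48), where the median marker of the list stood at 0.14% to 0.42% of the NFs of the same gel. The sum of epithelial markers was 2879 and 2914 CPM in co-culture against 3507 and 4113 CPM alone, with 7 of 11 markers called lower. The part of these markers' cells in the members' values was not tested. Foxa1 and Tfap2a each passed in 4 of the 10 alternative fits and Ehf in 3. In a model of all 10 libraries Sox9 still passed (adjusted p = 0.0058), whereas Foxa1 (0.0557), Tfap2a (0.0855) and Ehf (0.294) did not. In that model Sox9 was lost as well without the 13-MCB-17 library of gel 2 (0.207) or gel 4 (0.206), and the other 3 genes passed in none of the 4 fits that left out a tumor library. Of 15 related factors tested 3 were higher (Sox11, Sox4 and Runx1) and 5 lower, among them Ovol1 (-1.80 ± 0.11, adjusted p = 3.86e-05), Id2 and Elf3.

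**Figure D4:**
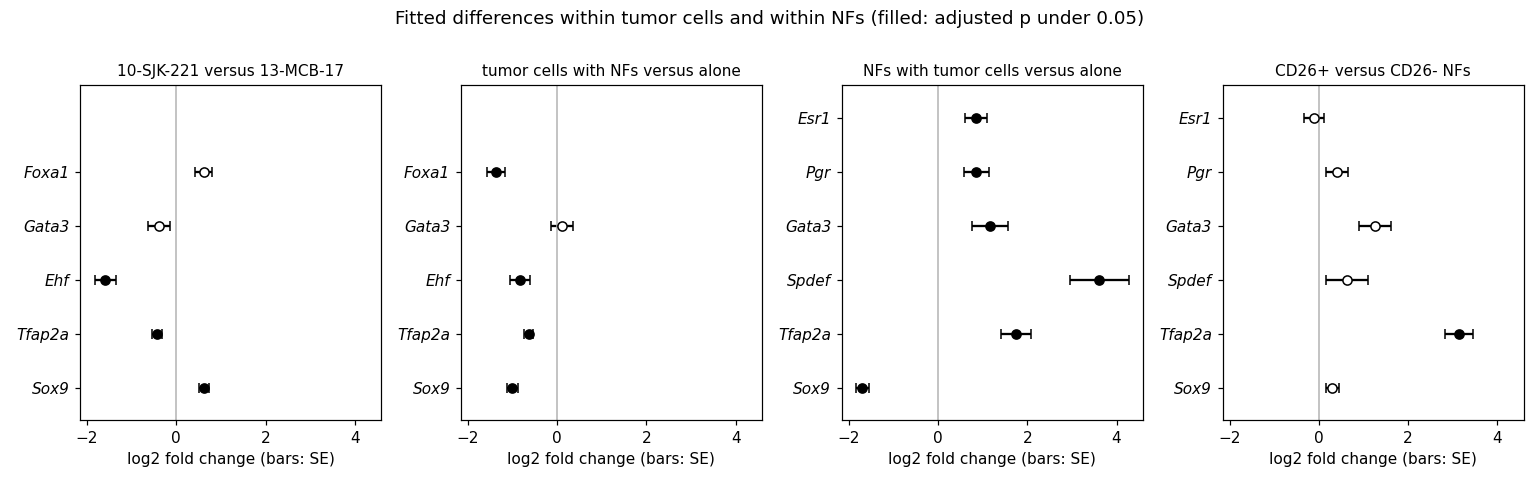
Log2 fold change (horizontal axes, linear) with SE bars for the members tested in the 4 comparisons within tumor cells or within NFs, filled where the adjusted p was under 0.05. In tumor cells with NFs Foxa1, Ehf, Tfap2a and Sox9 lie below 0, in NFs with tumor cells Sox9 alone lies below 0, and between subsets Tfap2a at 3.13 is the single filled point.

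Sox9 was the member tested in both cell classes that was lower in co-culture in each. In NFs and tumor cells Tfap2a had opposite signs, 1.75 in NFs and -0.64 in tumor cells. These are each comparison's own values, and the difference between the cell classes was not tested.

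Over the 10 libraries, genes with a pattern like that of a member were sought by Pearson's r of log2(CPM + 0.5) among 15621 genes. For Esr1 and Pgr, Nkd2 (r = 0.999) and Sorcs1 (r = 0.996) were the most alike, but 1462 and 1464 genes had an r above 0.9, since the libraries fall into NFs and tumor cells. For Foxa1 there were 1357 such genes, led by Gm4813, Mirt1 and Dsg3, and for Ehf 887, led by Kbtbd2. Patterns that did not follow the cell class had fewer: 64 genes for Gata3, led by Kmt5c (r = 0.962), Zranb1 and Lcn2, 116 for Sox9, led by Ecd (r = 0.978), and 203 for Spdef, led by Gm12611 (r = 0.982). For Tfap2a 617 genes had an r above 0.9, led by Tspan7 (r = 0.989). These values describe 10 libraries that share gels and carry no test.

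Cell types other than epithelium and fibroblasts were checked beside Sox10 and Tfap2a. Of 6 Schwann cell markers, Foxd3 had 0 counts in every library, and the list summed to 18.6 to 24.8 CPM in tumor cells, nearly all of it Mbp, and to 1.96 to 8.77 CPM in NFs. Of 6 melanocyte markers 4 were at 0 in most libraries, and Mitf, at 26.3 to 59.2 CPM in NFs and 5.88 to 13.2 CPM in tumor cells, made up most of the sum. The 7 endothelial and immune markers summed to 1.80 to 26.9 CPM in NFs and 4.52 to 6.33 CPM in tumor cells, highest in CD26+ NFs of gel 4. The part of any such cells in the counts of Sox10 and Tfap2a was not tested.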

How the data were processed

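The authors deposited 1 table of raw gene counts for all 10 libraries, with no normalization. RNA was extracted on columns, and stranded mRNA libraries were prepared. The submitters' processing notes name HISAT2 2.2.1 and GRCm38, while which program counted the reads, whether it used strand and which annotation release it read are not given in the sources used here. Of the gene IDs, 55140 (99.4%) were in GENCODE M21, and 99.4% of these had the same position. The table's 1 line with no gene ID had 0 counts throughout and was dropped.

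Libraries were grouped by cell, culture and line per the labels. CPM were computed with pandas 2.3.3 from total counts of 14142334 to 18408940 per library. Floors of 3 counts and exact 95% intervals (SciPy 1.17.1) describe counting error alone, because PCR copies cannot be recognised without molecular identifiers. Differences were tested with the edgeR 4.0.16 quasi-likelihood test in R 4.3.3 (TMM scaling, filterByExpr), and p-values were adjusted by Benjamini-Hochberg over all genes tested, with a threshold of 0.05. SE values are the log2 fold change divided by the square root of F. Cell class was the only term between NFs and tumor cells, line and culture were terms within tumor cells, and subset and culture within NFs. Nothing says that libraries of a group came from separate animals, so p-values measure the spread between these libraries. NF comparisons share libraries, as do the tumor comparisons. Scripts were tested on simulated data.

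Results were recomputed with RLE scaling, with every gene of at least 1 count, with DESeq2 1.42.0, with an added limit of 2 on the absolute log2 fold change, in 1 model of all 10 libraries, with gel as a replicate block, and without each library in turn. Scaling by library size only was chosen after seeing the data. Libraries of 1 gel share that gel per the labels, which pairs them, and their deviations from group means correlated at 0.183 (CD26- and CD26+ NFs), 0.145 (CD26- NFs and tumor cells) and 0.0821 (CD26+ NFs and tumor cells). The members and the 11 gene lists were chosen with earlier results of these data known. Genes named beside the members were, per list and comparison, up to 3 called genes with the highest and 3 with the lowest log2 fold change and a mean of at least 1 CPM, the marker genes, and the 3 genes most alike to each member. Other listed genes named for counts at or near 0 (Esr2, Csn2, Wap, Lalba and Tfap2b) and Csn3 were chosen after their values were seen. A further floxed allele in the genotype of the tumor lines and some genes of the lists are not reported here.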

Additional observations from a re-analysis of the deposited data

How the results depend on the processing

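Over the log2 fold changes of single members and all alternatives, 353 kept their side of the threshold, 62 lost it and 9 gained it, and no value that passed turned direction. Values past the threshold in no fit changed sign for Sox9 (tumor cells against NFs alone), Gata3 (tumor cell culture) and Esr1 (NF subsets). With gel as a replicate block, a pairing that the labels give, 7 members and 7642 genes were called between tumor cells and NFs of shared gels, and 1 member and 1331 genes between NF subsets, and the block changed no call of a member.

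Requiring a log2 fold change above 2 as well left 3969 genes called for tumor cells against NFs alone, 3558 in shared gels, 278 between lines, 418 for tumor cell culture, 2047 for NF culture and 192 between NF subsets. It left 0 members between lines and 0 for tumor cell culture (4 at an unadjusted p under 0.05 in each) and 1 for NF culture. In the model of all 10 libraries, 861 genes and 0 members (2 unadjusted) were called between lines, 1511 genes and 1 member for tumor cell culture, and 2 members between NF subsets. DESeq2 called 945 genes between lines, 1568 for tumor cell culture and 2 members between NF subsets. Without a filter 2917 genes were called between lines, and with library-size scaling 2 members between NF subsets. The second member between subsets was Gata3 each time.

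Leaving out 1 library at a time gave 4718 to 5817 genes and 5 to 6 members for tumor cells against NFs alone, and 5694 to 7661 genes and 6 to 7 members in shared gels. Between lines it gave 274 to 337 genes and 0 to 0 members (0 to 2 unadjusted), and for tumor cell culture 216 to 708 genes and 0 to 1 member, both in the model of all 10 libraries, since 3 tumor libraries leave no residual degree of freedom. It gave 5074 to 7099 genes and 3 to 6 members for NF culture, and 205 to 1309 genes and 1 to 1 member between NF subsets, lowest without the CD26- library of gel 5, next without the CD26+ library of gel 5 (241) and the CD26- library of gel 4 (432).

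The median of all genes shifted from -0.05 to 0.11 (tumor cells against NFs alone), from -0.04 to 0.16 (shared gels) and from 0.00 to 0.16 (NF subsets) with library-size scaling. Counts under 30 per library limit Spdef and Sox10 in every library, Foxa1 and Ehf in NFs, and Tfap2a in CD26- NFs. The same holds for Gata3 in CD26- NFs of gels 1 and 4. The 0 counts of Elf5 allow up to 0.163 to 0.212 CPM. Without replicate gels of NFs alone, no fit could separate culture from gel. With 1 library per line and culture, the interaction of line and culture would leave no residual degree of freedom in the 4 tumor libraries. It was not fitted in the model of all 10 libraries.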
